A study of Homo sapiens with 13 samples.

Results

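The 38 genes described here act in mitosis and at the spindle. The rule that chose them is a list of gene names and uses no measured value, but the list was made with earlier results of these data known. All 38 were found by symbol among the 45744 genes of the count table. All 38 also had enough counts to be tested, as did 17252 genes in total. RNA sequencing was done on HuT78, an established T cell line from a patient with Sézary syndrome, a leukemic cutaneous T cell lymphoma. Cells received chaetocin at 10 nM (4 libraries, replicates 1 to 4), F5446 at 10 nM (3 libraries, replicates 2 to 4), romidepsin at 1 µM (4 libraries, replicates 1 to 4) or the vehicle DMSO (2 libraries, replicates 1 and 4), each for 72 h. Chaetocin is a fungal metabolite known as an inhibitor of histone H3 lysine 9 methyltransferases of the SUV39H1 type. F5446 is a small molecule known as a SUV39H1 inhibitor. Romidepsin inhibits histone deacetylases and is used against cutaneous T cell lymphoma. All libraries come from a single line, and the labels do not say whether the replicates are separate cultures, so each p-value reflects only how far these libraries spread.

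Mitosis begins when CDK1 bound to a B-type cyclin is freed from its inhibitory phosphates, and it ends when the anaphase-promoting complex with CDC20 sends securin and cyclin B to the proteasome. Between these steps kinetochores capture spindle microtubules, the spindle checkpoint holds anaphase back until every chromosome is attached, and the chromosomal passenger complex corrects faulty attachments. Most of these genes are transcribed late in the cell cycle, so their RNA in a culture follows the share of cells in that phase. The DREAM complex holds them silent in resting cells, and B-MYB with FOXM1 activates them later, through a promoter element named CHR (TTTGAA) that often lies close to a CCAAT box, the site of the factor NF-Y. In bulk RNA, fewer cells in mitosis and less RNA per mitotic cell cannot be told apart.

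Promoter sequence of 32 of the 38 genes was available from RefSeq (GRCh38.p14; 250 bases before to 50 bases after the start, 42 windows in all). AURKA, BUB3, TTK, BIRC5, TPX2 and UBE2C had no entry. TTTGAA, read on both strands, was present in 23 of the 32 genes (71.9%), against 18.2% of all 27305 genes with a window. CCAAT, also read on both strands (ATTGG), was present in 26 of the 32 (81.2%), against 39.7% of all genes. With sites in overlapping windows counted once there were 33 copies of TTTGAA, of which 27 lay on the gene's own strand and 21 between positions -100 and -1 from a start. The 9 stretches below show the element in each kind of gene, from entry into mitosis to its end, 5′ to 3′ on the gene's strand. CDK1 and CDC20 hold further copies that are not printed. For CDK1, shown at position -69, they begin at -13 and 10 from the same start and at -161 from another. For CDC20, shown at -65, a further copy begins at -178. Capitals mark TTTGAA and, where it falls within the stretch, CCAAT or its reverse ATTGG. In CDCA8 and MKI67 the 2 motifs overlap by a shared A.
CDK1: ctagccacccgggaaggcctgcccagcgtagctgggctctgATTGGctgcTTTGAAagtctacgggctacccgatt
CCNB2: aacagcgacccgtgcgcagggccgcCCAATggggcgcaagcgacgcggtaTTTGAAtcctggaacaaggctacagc
BUB1B: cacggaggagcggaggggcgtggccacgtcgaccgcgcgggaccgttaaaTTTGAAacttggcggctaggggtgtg
CENPA: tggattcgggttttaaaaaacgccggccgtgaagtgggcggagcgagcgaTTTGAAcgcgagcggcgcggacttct
CDCA8: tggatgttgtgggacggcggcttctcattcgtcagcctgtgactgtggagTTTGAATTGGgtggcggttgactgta
KIF4A: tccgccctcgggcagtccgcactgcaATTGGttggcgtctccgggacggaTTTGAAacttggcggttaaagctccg
KIF23: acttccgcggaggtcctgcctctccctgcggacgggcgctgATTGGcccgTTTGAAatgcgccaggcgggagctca
CDC20: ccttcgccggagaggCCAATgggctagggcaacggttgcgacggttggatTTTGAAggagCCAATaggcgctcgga
MKI67: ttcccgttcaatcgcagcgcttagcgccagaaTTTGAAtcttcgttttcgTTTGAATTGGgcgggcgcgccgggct
These stretches lie at chr10:60778359-60778434 (+) for CDK1, chr15:59105067-59105142 (+) for CCNB2, chr15:40160996-40161071 (+) for BUB1B, chr2:26785988-26786063 (+) for CENPA, chr1:37692443-37692518 (+) for CDCA8, chrX:70290020-70290095 (+) for KIF4A, chr15:69414244-69414319 (+) for KIF23, chr1:43358866-43358941 (+) for CDC20 and chr10:128126427-128126502 (-) for MKI67, with the strand in brackets. A match is a description of the letters and not a measured binding site.

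The libraries held 19901052 to 30816188 counts, and the 38 genes took 0.82 to 1.16% of them. Per gene and library the counts ran from 0, for PRC1 in romidepsin replicate 1, to 93103, for MKI67. Values below are CPM, a gene's counts scaled to the normalized library size, and differences are on the log2 scale, so that 1 stands for a doubling. The T cell genes CD3D, CD3E, CD3G, CD4, PTPRC and LCK were detected in all 13 libraries, while CD28 was at 0 in 8 of them. Of 3 T cell markers taken as lacking in this line, CD7 ran from 0 to 0.557 CPM, CD8A from 0.841 to 4.7 CPM and DPP4 from 7.38 to 18.1 CPM, with CD7 alone at 0 in some libraries (6). Their sum was 10.7 to 12.9 CPM in chaetocin libraries, 9.6 to 15.7 CPM in F5446 libraries, 15.9 to 21.95 CPM in romidepsin libraries and 13.6 to 14.4 CPM in DMSO libraries. Of markers of other cells, MS4A1 reached 33.4 CPM and CD79A 78 CPM, while PAX5 reached 0.156 CPM. The epithelial markers EPCAM, KRT8, KRT18 and CDH1 summed to 97.8 to 115 CPM in chaetocin libraries, 115 to 119 CPM in F5446 libraries, 121 to 165 CPM in romidepsin libraries and 106 to 136 CPM in DMSO libraries. Fibroblast markers summed to at most 33.0 CPM, and myeloid markers to at most 2.66 CPM. The part of these markers in the results was not tested.

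No mitosis or spindle gene differed between treatments at an adjusted p under 0.05 in edgeR, and DESeq2 and limma-voom called none of the 38 either. In edgeR's test of any difference among the 4 groups, 4 of 17252 genes passed (0.0232%) and none of them was a mitosis or spindle gene. Unadjusted p was under 0.05 for 543 genes (3.15%) and for none of the 38.  In each of the 4 comparisons made, the 95% interval lay within a 2-fold difference in either direction for 37 of the 38, all but PRC1. It lay within 1.5-fold for 31 genes with chaetocin, 19 with F5446 and 31 with romidepsin, each against DMSO, and for 27 between chaetocin and F5446. Within treatments, a gene's deviations from its group means correlated with the mean of the other members at a median r of 0.68. The r was above 0 for 36 of the 38, and its median over all other tested genes was -0.038. The 38 genes are therefore not separate observations, and counts of them above or below 0 are descriptions and not tests. PRC1, which bundles antiparallel microtubules of the central spindle, had 0 to 3.20 CPM per library, and the overlapping antisense gene PRC1-AS1 had 36.6% as many counts. The strand setting of the counting is not given in the sources used here. PRC1 is therefore uncertain and its fold changes are not interpreted. Near-identical copies or partners of other members (AURKAP1, BUB1B-PAK6, KIF4B and PTTG2) held at most 0.973% of the counts of the gene they resemble.

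**Figure D1:**
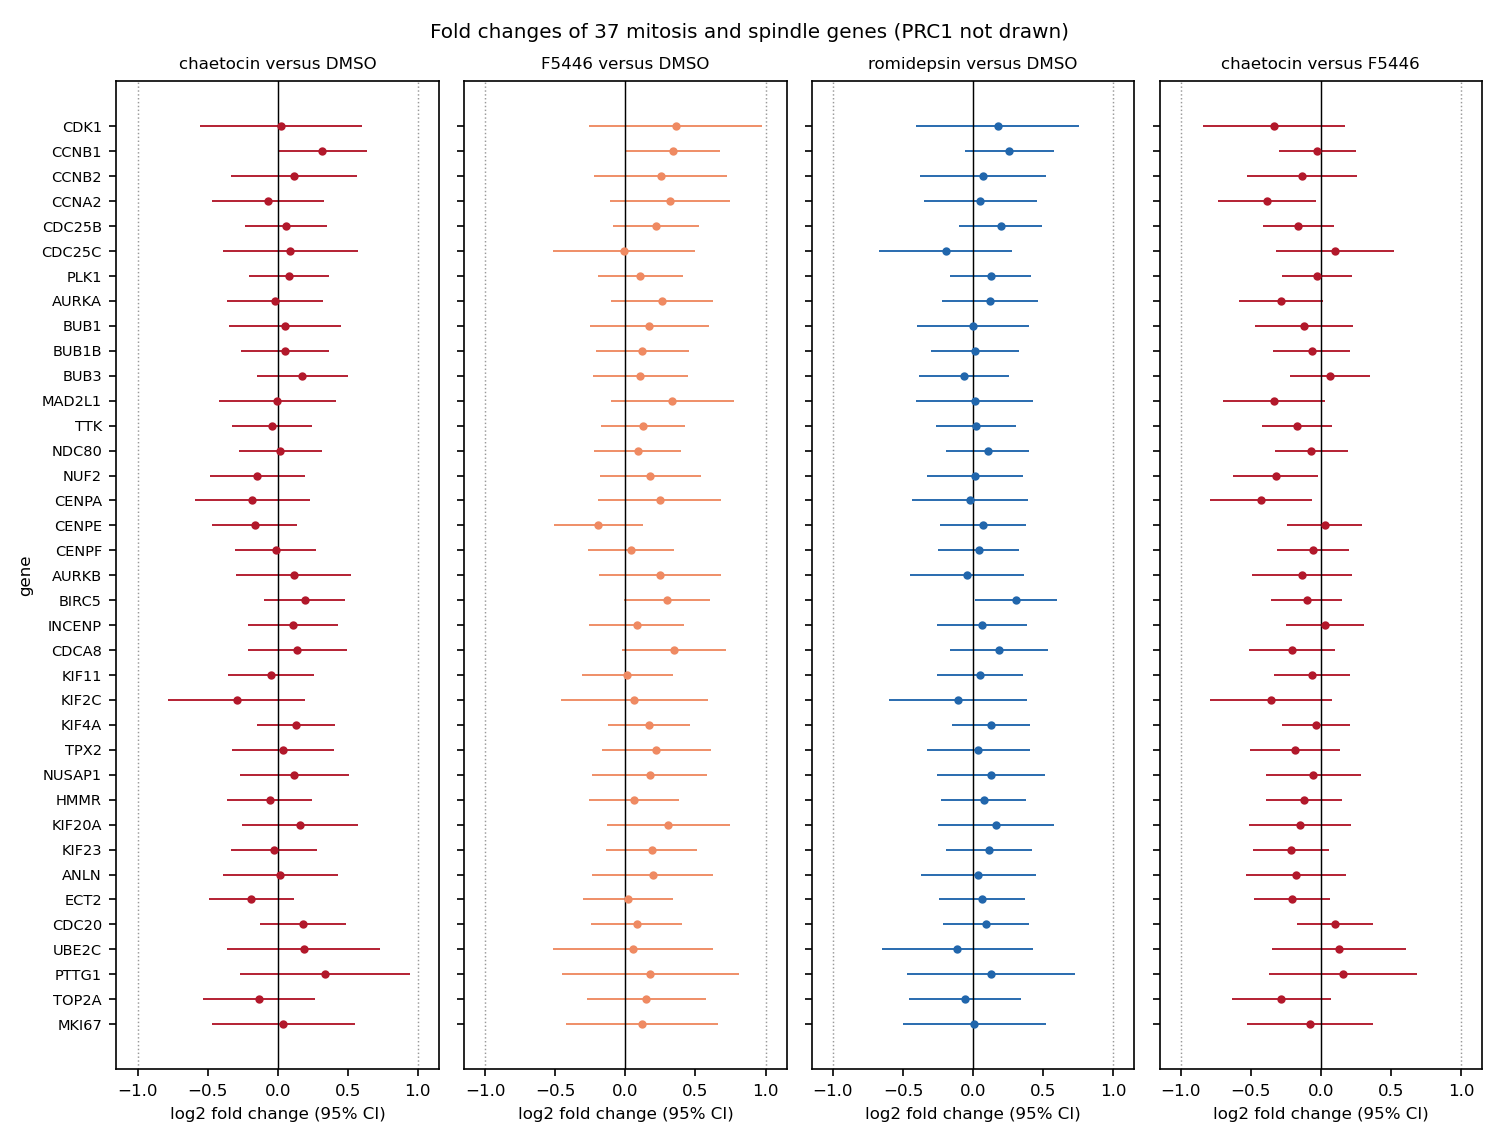
Log2 fold change of 37 mitosis and spindle genes in 4 comparisons (points, with bars for the 95% CI of the edgeR fit; first-named treatment over the second). Dotted lines stand at 2-fold. Every interval lies within them, and 5 intervals exclude 0: CCNB1 with F5446, BIRC5 with romidepsin, and CCNA2, NUF2 and CENPA between chaetocin and F5446.

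The comparison of chaetocin with DMSO asks whether this methyltransferase inhibitor alters the mitotic programme. No gene was called (0% of all tested genes), and edgeR adjusted p was 1 for each of the 38. Their median log2 fold change was 0.046, against 0.0070 over all tested genes, and 24 of 38 lay above 0, where 51% of all genes did. At an unadjusted p under 0.05 there were 703 genes (4.07%) and none of the 38. The sign of the median rests on single libraries. Without DMSO replicate 1 it was -0.044 with 14 genes above 0, and without chaetocin replicate 4 it was -0.011 with 18 above 0. Without DMSO replicate 4 it was 0.16 with 30 above 0. In both same-numbered pairs (1 and 4), 13 genes were higher with chaetocin, where 25.5% of all genes were, and 4 were lower, where 25.1% were.

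The regulators of entry had a median of 0.070. CCNB1, the B-type cyclin that activates CDK1, was at 187, 202, 186 and 189 CPM in the chaetocin libraries, 202, 199.8 and 179.9 CPM in the F5446 libraries, 168, 176, 227 and 162 CPM in the romidepsin libraries and 175 and 131 CPM in the DMSO libraries, in the order of replicate number. All 4 chaetocin libraries lay above both DMSO libraries, and the log2 fold change was 0.32 (95% CI -6.6e-05 to 0.64), with an unadjusted p of 0.05 in edgeR. Its partner CDK1, the kinase that drives mitosis, was at 159, 196, 170.3 and 270.5 CPM in the chaetocin libraries, 223, 266 and 264 CPM in the F5446 libraries, 165, 204, 338 and 176 CPM in the romidepsin libraries and 159 and 233 CPM in the DMSO libraries. The CDK1 libraries overlapped between all groups, with romidepsin replicate 3 highest, and the chaetocin fold change was 0.022 (95% CI -0.56 to 0.60). Among the others, CCNB2, a second B-type cyclin, stood at 0.12, PLK1, a kinase of spindle poles and mitotic entry, at 0.082, AURKA, the centrosomal kinase, at -0.022, and CDC25C, a phosphatase that activates CDK1, at 0.091. CCNA2, the cyclin of S phase and mitotic entry, stood at -0.068 and CDC25B, the phosphatase that starts CDK1 activation, at 0.059.

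**Figure D2:**
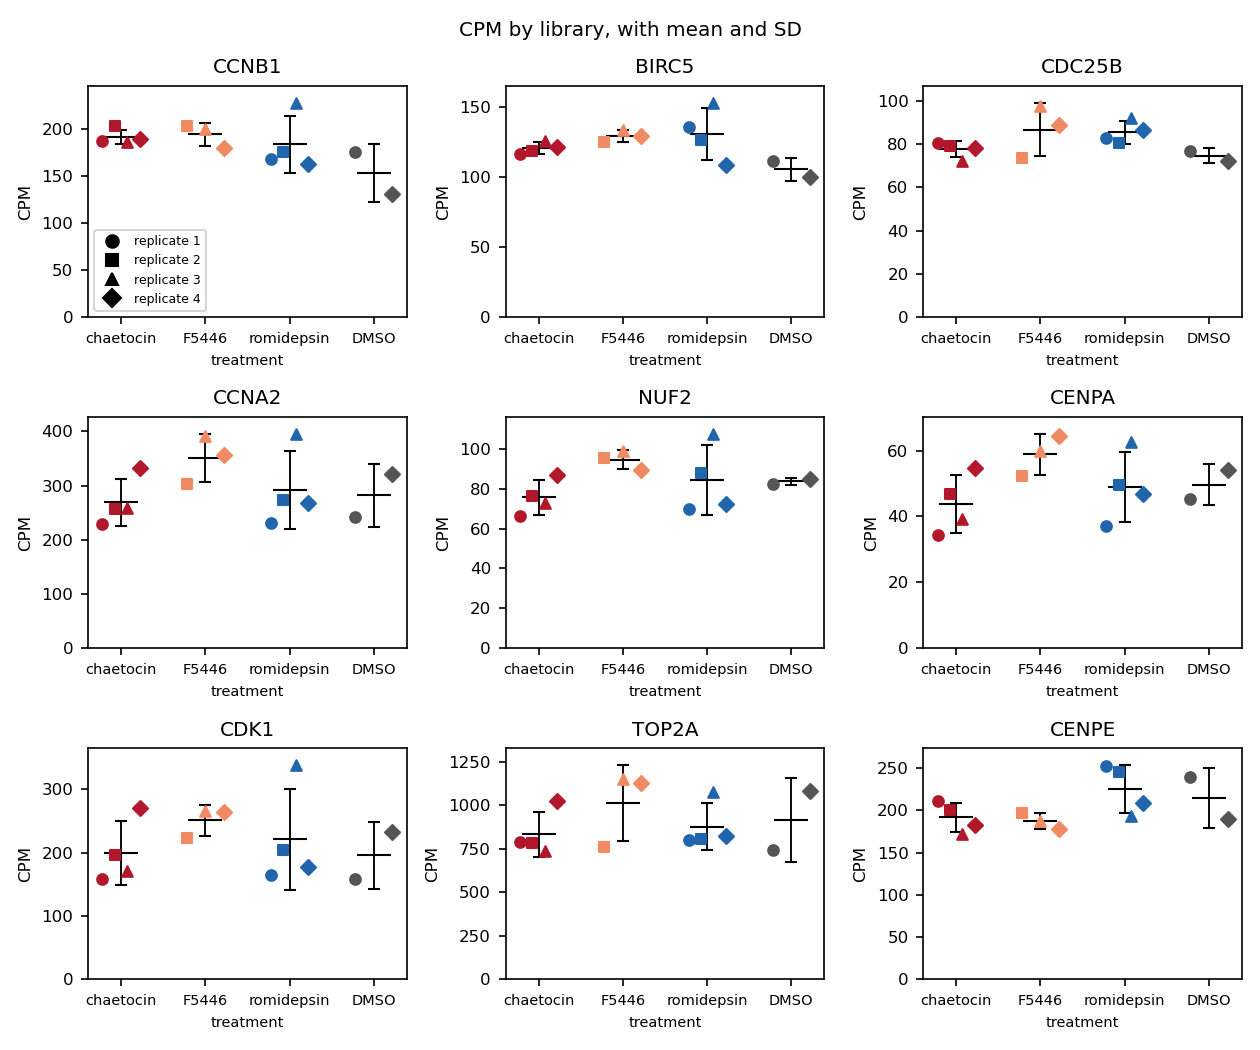
CPM of 9 mitosis and spindle genes by library (points, shaped by replicate number) with the mean and SD of each treatment (chaetocin and romidepsin n = 4, F5446 n = 3, DMSO n = 2). CCNB1 lies at 186 to 202 CPM with chaetocin and 131 to 175 CPM with DMSO, and CENPE is lower in replicates 3 and 4 of each treatment than in replicates 1 and 2.

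Spindle checkpoint genes had a median of 0.052 with chaetocin. BUB1, the kinase that recruits checkpoint proteins to kinetochores, was at 209, 241, 286 and 328 CPM in the chaetocin libraries, 243, 322 and 302 CPM in the F5446 libraries, 221, 234, 340.3 and 229.6 CPM in the romidepsin libraries and 229.9 and 283 CPM in the DMSO libraries. The groups overlapped, and the chaetocin fold change was 0.052 (95% CI -0.35 to 0.45). BUB1B, which inhibits the anaphase-promoting complex, stood at 0.054, BUB3, which anchors both, at 0.17, MAD2L1, the checkpoint protein that binds CDC20, at -0.0025, and TTK, the kinase at the head of the checkpoint, at -0.040.

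Kinetochore genes had the lowest median of the 8 roles with chaetocin, -0.14. NDC80, the microtubule-binding subunit of the outer kinetochore, was at 93.9, 87.6, 73.5 and 100.1 CPM in the chaetocin libraries, 85.4, 97.5 and 96.3 CPM in the F5446 libraries, 89.9, 88.2, 102 and 96.1 CPM in the romidepsin libraries and 88.9 and 86.4 CPM in the DMSO libraries. Its groups overlapped, with chaetocin replicate 3 lowest of the 13, and the fold change was 0.018 (95% CI -0.28 to 0.32). CENPE, the kinesin that brings chromosomes to the plate, stood at -0.16, and CENPF, a large outer kinetochore protein, at -0.015. CENPA, the histone H3 variant that marks centromeres, stood at -0.18 and NUF2, which pairs with NDC80, at -0.14.

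The passenger complex had a median of 0.13. BIRC5, the survivin subunit, was at 116, 119, 126 and 122 CPM in the chaetocin libraries, 125, 134 and 129 CPM in the F5446 libraries, 136, 126, 153 and 108 CPM in the romidepsin libraries and 111 and 99.7 CPM in the DMSO libraries. All 4 chaetocin libraries lay above both DMSO libraries, at 121 ± 4.13 CPM with chaetocin (SD, n = 4) and 106 ± 8.22 CPM with DMSO (SD, n = 2). The fitted log2 fold change was 0.19 (95% CI -0.10 to 0.48). AURKB, the kinase of the complex, was at 78.07, 76.8, 108 and 97.3 CPM in the chaetocin libraries, 88.5, 109 and 98.8 CPM in the F5446 libraries, 67.9, 62.3, 111 and 80.9 CPM in the romidepsin libraries and 75.3 and 90.9 CPM in the DMSO libraries. Here the groups overlapped and within each treatment the libraries numbered 1 and 2 lay below those numbered 3 and 4. The chaetocin fold change was 0.11 (95% CI -0.30 to 0.53). INCENP, the scaffold, stood at 0.11 and CDCA8, the borealin subunit, at 0.14.

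Spindle proteins and motors had a median of 0.038 with chaetocin. KIF11, the motor that pushes spindle poles apart, was at 302, 260.0, 217 and 289 CPM in the chaetocin libraries, 234, 302 and 299.6 CPM in the F5446 libraries, 308, 275, 288 and 274 CPM in the romidepsin libraries and 277 and 275 CPM in the DMSO libraries. The groups overlapped and the DMSO pair sat in the middle of the range, with a fold change of -0.048 (95% CI -0.35 to 0.26). KIF4A, a chromosome-bound kinesin of the central spindle, averaged 80.5 ± 2.60 CPM with chaetocin (SD, n = 4) and 73.4 ± 3.53 CPM with DMSO (SD, n = 2), without overlap and with a fold change of 0.13 (95% CI -0.15 to 0.41). KIF2C, a microtubule depolymerase, stood at -0.29, TPX2, which activates AURKA on the spindle, at 0.038, NUSAP1, a microtubule-bundling protein, at 0.12, and HMMR, a spindle-associated hyaluronan receptor, at -0.057.

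Of the cytokinesis genes, with a median of -0.0035, 2 are given by library. KIF20A, a central spindle kinesin, was at 128, 138, 168 and 175 CPM in the chaetocin libraries, 133, 195 and 178 CPM in the F5446 libraries, 127, 126, 199.8 and 159 CPM in the romidepsin libraries and 117 and 156 CPM in the DMSO libraries. ECT2, the exchange factor that activates RhoA at the cleavage furrow, was at 82.5, 99.6, 90.5 and 114 CPM in the chaetocin libraries, 99.5, 120.0 and 115 CPM in the F5446 libraries, 102, 115, 128 and 115 CPM in the romidepsin libraries and 107 and 113 CPM in the DMSO libraries. Both genes overlapped between groups, and the chaetocin fold change was 0.16 (95% CI -0.26 to 0.57) for KIF20A and -0.19 (95% CI -0.49 to 0.12) for ECT2. KIF23, a subunit of centralspindlin, stood at -0.026 and ANLN, the ring scaffold anillin, at 0.019.

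Genes of mitotic exit had a median of 0.18. CDC20, the activator of the anaphase-promoting complex, was at 177, 180.5, 195 and 172 CPM in the chaetocin libraries, 156, 196 and 155 CPM in the F5446 libraries, 171, 141, 203 and 166 CPM in the romidepsin libraries and 159.7 and 160.1 CPM in the DMSO libraries. The chaetocin libraries lay above the DMSO pair, which differed from each other by less than 1 CPM, and the fold change was 0.18 (95% CI -0.13 to 0.49). UBE2C, the ubiquitin-conjugating enzyme of that complex, and PTTG1, the securin, stood at 0.18 (95% CI -0.36 to 0.73) and 0.34 (95% CI -0.27 to 0.94). Chaetocin replicate 3 alone held 203 CPM of UBE2C and 251 CPM of PTTG1, the highest of the 13 libraries for both.

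Chromosome proteins had a median of -0.046. TOP2A, the topoisomerase that untangles sister chromatids, was at 790.1, 782, 734 and 1022 CPM in the chaetocin libraries, 759.9, 1148 and 1126 CPM in the F5446 libraries, 797, 804, 1076 and 822 CPM in the romidepsin libraries and 741 and 1082 CPM in the DMSO libraries. MKI67, the Ki-67 protein that coats mitotic chromosomes, was at 2165, 2308, 3818 and 3079 CPM in the chaetocin libraries, 2355, 3437 and 3211 CPM in the F5446 libraries, 2203, 2853, 2459 and 3610 CPM in the romidepsin libraries and 2204 and 3329 CPM in the DMSO libraries. Both overlapped between groups, with fold changes of -0.13 (95% CI -0.53 to 0.27) for TOP2A and 0.039 (95% CI -0.47 to 0.55) for MKI67. In all, 4 of the 38 genes had every chaetocin library above every DMSO library (CCNB1, BIRC5, CDC20 and KIF4A), where 5.22% of all genes did, and none had every one below, where 6.09% did.

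In F5446 against DMSO, 36 of the 38 genes lay above 0, all but CENPE (-0.19) and CDC25C (-0.0094), where 51.2% of all tested genes did. No gene was called (0% of all tested genes), and edgeR adjusted p was 1 for each of the 38. The median log2 fold change was 0.17, against 0.0091 over all genes. At an unadjusted p under 0.05 there were 428 genes (2.48%) and 1 of the 38, CCNB1. Without F5446 replicate 3 the median was 0.12 with 29 above 0, and without DMSO replicate 1 it was 0.072 with 27 above 0. Number 4 alone has both an F5446 and a DMSO library, and in that pair 29 genes were higher with F5446, where 50.3% of all genes were, and 9 were lower, where 47.3% were. The F5446 libraries are numbered 2, 3 and 4 and the DMSO libraries 1 and 4, so replicate number is not balanced between these groups. With replicate number as a block in the fit, 28 of the 38 genes lay above 0. A term for numbers 1 and 2 against 3 and 4 in its place left 33 above 0.

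The highest role medians in this comparison were those of the passenger complex (0.27) and the entry regulators (0.26), and the lowest those of mitotic exit (0.081) and the kinetochore (0.086). CCNB1 averaged 194 ± 12.3 CPM with F5446 (SD, n = 3) and 153 ± 31.0 CPM with DMSO (SD, n = 2). Its fitted difference was 0.34 (95% CI 0.0078 to 0.68) with an unadjusted p of 0.0453 in edgeR. BIRC5 averaged 129 ± 4.19 CPM with F5446, and its fold change was 0.29 (95% CI -0.013 to 0.60). CDCA8 was at 64.4, 66.9, 76.3 and 83.6 CPM in the chaetocin libraries, 69.2, 93.0 and 90.3 CPM in the F5446 libraries, 64.6, 65.1, 87.9 and 82.8 CPM in the romidepsin libraries and 65.2 and 66.9 CPM in the DMSO libraries. All 3 F5446 libraries lay above the DMSO pair for CDCA8, with F5446 replicate 2 only just so, and the fold change was 0.35 (95% CI -0.022 to 0.72). CDK1 stood at 0.36 (95% CI -0.26 to 0.97), CCNA2 at 0.32 (95% CI -0.11 to 0.74), and MAD2L1 at 0.33 (95% CI -0.11 to 0.78). Of the remaining genes, KIF20A stood at 0.31, AURKA at 0.26, CCNB2 at 0.25, AURKB at 0.25, CENPA at 0.24 and TPX2 at 0.22, while ECT2 (0.019) and KIF11 (0.014) were near 0. In all, 8 of the 38 genes had every F5446 library above both DMSO libraries (AURKA, BIRC5, CCNB1, CDCA8, KIF4A, MAD2L1, NUF2 and TTK), where 9.44% of all genes did, and none had every one below, where 9.12% did.

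For romidepsin, at a dose unlike that of the other compounds, 30 of the 38 genes lay above 0 against DMSO, where 51% of all genes did, with a median of 0.064 against 0.0054 over all genes. No gene was called (0% of all tested genes), and edgeR adjusted p was 1 for each of the 38. There were 487 genes at an unadjusted p under 0.05 (2.82%), and 1 of the 38, BIRC5. The sign of the median again rests on single libraries: it was -0.038 with 15 genes above 0 without DMSO replicate 1, and -0.0030 with 18 above 0 without romidepsin replicate 3. In both same-numbered pairs (1 and 4), 9 genes were higher with romidepsin, where 24% of all genes were, and 13 were lower, where 25% were. BIRC5 averaged 131 ± 18.5 CPM with romidepsin (SD, n = 4). Its fitted difference was 0.31 (95% CI 0.017 to 0.60) with an unadjusted p of 0.0392 in edgeR. Its romidepsin libraries spanned 108 to 153 CPM, and replicate 4 lay within the DMSO pair. CDC25B was at 80.8, 79.3, 72.2 and 78.4 CPM in the chaetocin libraries, 73.5, 97.7 and 89.0 CPM in the F5446 libraries, 82.6, 80.3, 92.0 and 86.6 CPM in the romidepsin libraries and 77.0 and 72.1 CPM in the DMSO libraries. All 4 romidepsin libraries lay above both DMSO libraries, with a fold change of 0.20 (95% CI -0.10 to 0.49). CDC25B was the only one of the 38 without overlap above DMSO (5.34% of all genes), and none lay wholly below (4.98%). CCNB1 stood at 0.26 (95% CI -0.059 to 0.58) and CDK1 at 0.17 (95% CI -0.41 to 0.76). Among the lowest were CDC25C at -0.20 (95% CI -0.67 to 0.28) and UBE2C at -0.11 (95% CI -0.65 to 0.43). By role, the medians ran from -0.026 for the chromosome proteins and 0.010 for the checkpoint to 0.12 for the entry regulators and 0.12 for the passenger complex. Within the passenger complex the members differed, with CDCA8 at 0.19, INCENP at 0.064 and AURKB at -0.043.

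**Figure D3:**
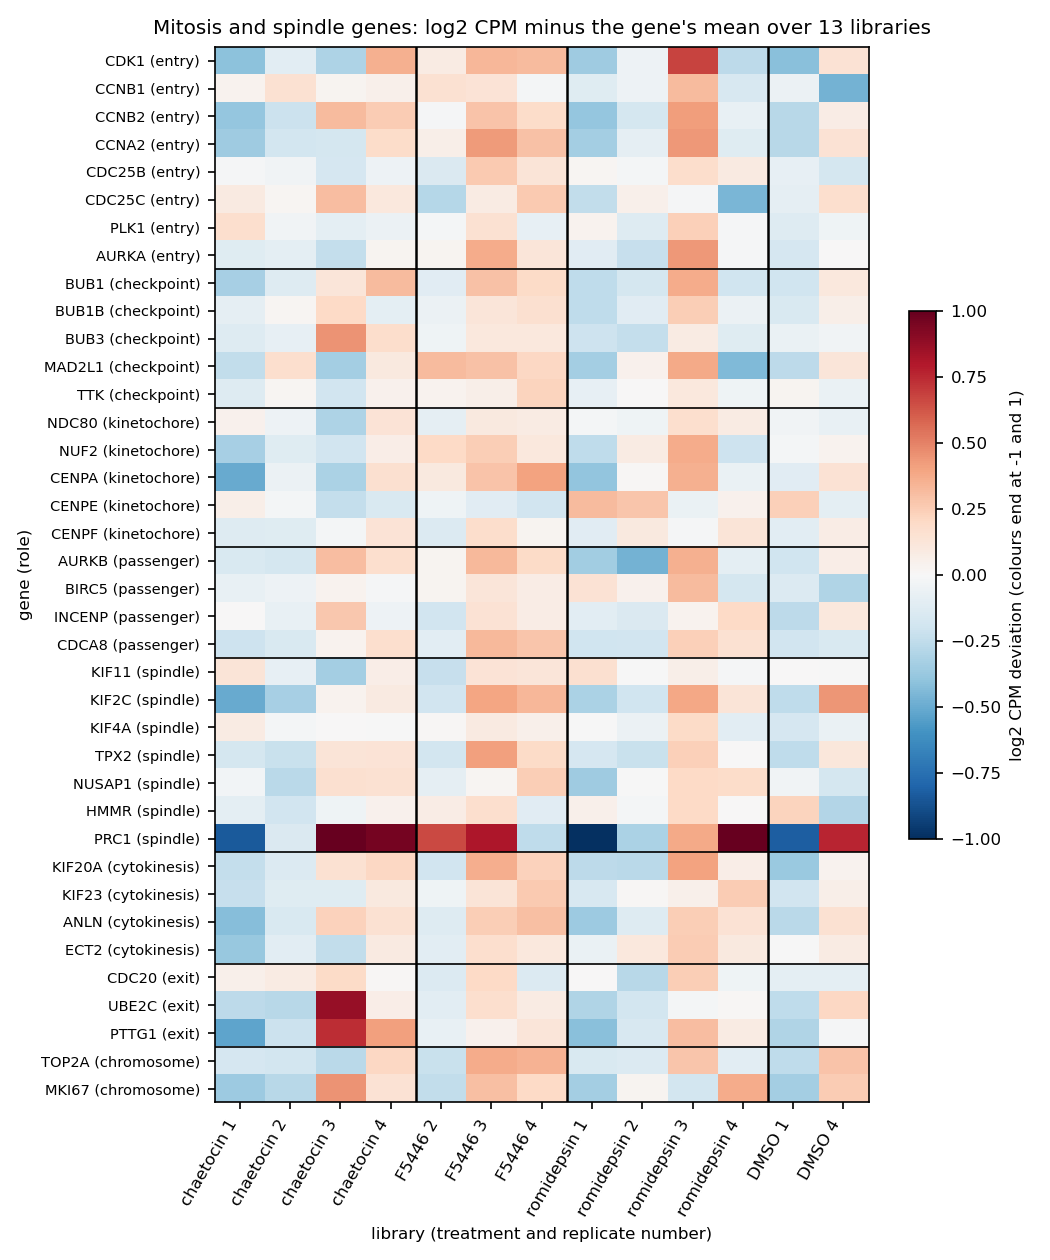
Log2 CPM of each of the 38 genes minus that gene's mean over 13 libraries, with genes in order of role (rows) and libraries by treatment and replicate number (columns). Red is above and blue below the gene's mean. Within each treatment the median gene is higher in replicates 3 and 4 than in 1 and 2, by 0.16 to 0.24 log2 units, while CENPE is lower.

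Chaetocin and F5446, matched in dose and time, are the only pair of compounds compared. With chaetocin relative to F5446, 31 of the 38 genes lay below 0, where 50.1% of all genes did, and the median was -0.12 against -0.00048 over all genes. No gene was called (0% of all tested genes), and edgeR adjusted p was 0.999 or 1 for each of the 38. At an unadjusted p under 0.05 there were 587 genes (3.4%) and 3 of the 38: CENPA, CCNA2 and NUF2, each lower with chaetocin. The median was -0.049 without F5446 replicate 3, with 26 genes below 0, and -0.20 without F5446 replicate 2. Chaetocin has a library numbered 1 and F5446 has none, so replicate number is not balanced here either. With replicate number as a block in the fit, 30 of the 38 genes lay below 0.

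The centromeric histone CENPA was at 34.4, 46.8, 39.3 and 54.6 CPM in the chaetocin libraries, 52.2, 59.7 and 64.5 CPM in the F5446 libraries, 37.1, 49.4, 62.7 and 46.7 CPM in the romidepsin libraries and 45.2 and 54.2 CPM in the DMSO libraries. Chaetocin replicate 4 overlapped with F5446 replicate 2, and the difference was -0.42 (95% CI -0.79 to -0.062), with an unadjusted p of 0.024 in edgeR. CCNA2 was at 228, 257, 258 and 332 CPM in the chaetocin libraries, 304, 392 and 357 CPM in the F5446 libraries, 230.2, 274, 395 and 268 CPM in the romidepsin libraries and 241 and 322 CPM in the DMSO libraries. Again chaetocin replicate 4 overlapped with F5446 replicate 2, and the difference was -0.38 (95% CI -0.74 to -0.031). The kinetochore gene NUF2 was at 66.2, 76.6, 73.0 and 87.1 CPM in the chaetocin libraries, 95.6, 98.9 and 89.7 CPM in the F5446 libraries, 69.9, 88.2, 108 and 72.2 CPM in the romidepsin libraries and 82.3 and 85.1 CPM in the DMSO libraries. All 4 chaetocin libraries lay below all 3 F5446 libraries, and the difference was -0.32 (95% CI -0.62 to -0.022). MAD2L1 was the other gene without overlap, at 90.5 ± 15.6 CPM with chaetocin (SD, n = 4) and 114 ± 4.52 CPM with F5446 (SD, n = 3), a difference of -0.34 (95% CI -0.70 to 0.026). The 2 genes compare with 3.11% of all genes wholly lower with chaetocin, and none was wholly higher, where 2.28% were.

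CCNB1, BIRC5 and KIF4A, whose libraries lay above DMSO without overlap with both chaetocin and F5446, were close to 0 here. Both of those comparisons use the same 2 DMSO libraries, so they are not independent of each other. CCNB1 differed by -0.024 (95% CI -0.30 to 0.25), BIRC5 by -0.10 (95% CI -0.36 to 0.15) and KIF4A by -0.037 (95% CI -0.28 to 0.21). CDK1 stood at -0.34 (95% CI -0.84 to 0.17), KIF2C at -0.36 (95% CI -0.79 to 0.078) and TOP2A at -0.28 (95% CI -0.63 to 0.071). The 3 genes of mitotic exit were the only role wholly above 0, with a median of 0.13 and CDC20 at 0.10 (95% CI -0.17 to 0.37). This did not hold in each pair of same-numbered libraries. In pairs 2, 3 and 4 UBE2C stood at -0.17, 0.70 and -0.014, PTTG1 at -0.14, 0.70 and 0.29, and CDC20 at 0.21, -0.012 and 0.15. UBE2C was thus above 0 only in pair 3, which holds chaetocin replicate 3. Of the 3 same-numbered pairs of libraries (2, 3 and 4), 14 genes were lower with chaetocin in all of them, where 14.4% of all genes were, and none was higher in all, where 11.4% were. The median of the 38 was -0.033 in pair 2, -0.20 in pair 3 and -0.053 in pair 4. In pair 3 mitochondrially encoded genes took 15.9% of counts with chaetocin and 5.22% with F5446, and their part in the difference was not tested.

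The level of the 38 genes differed by replicate number. Libraries numbered 3 and 4 had members at a median of -0.0100 to 0.24 log2 units from their own means (7 libraries), and those numbered 1 and 2 at -0.21 to -0.065 (6 libraries), without overlap. The nearest across the sets were romidepsin replicate 4 (-0.0100) and F5446 replicate 2 (-0.065), a gap smaller than the range within either set. From 18 to 37 of the 38 genes lay above their mean in a library numbered 3 or 4, and from 4 to 13 in one numbered 1 or 2. This division had been chosen from these data, so no test is given, and the labels do not say what the numbers stand for. Romidepsin replicate 3 was highest and romidepsin replicate 1 lowest, while the DMSO libraries lay at 0.059 (replicate 4) and -0.17 (replicate 1). Mitochondrially encoded genes took 5.22 to 15.9% of counts in libraries numbered 3 and 4 and 8.75 to 12.7% in those numbered 1 and 2. All but chaetocin replicate 3 (15.9%) of those numbered 3 and 4 were at or under 8.90%. The part of that share in the difference was not tested.

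**Figure D4:**
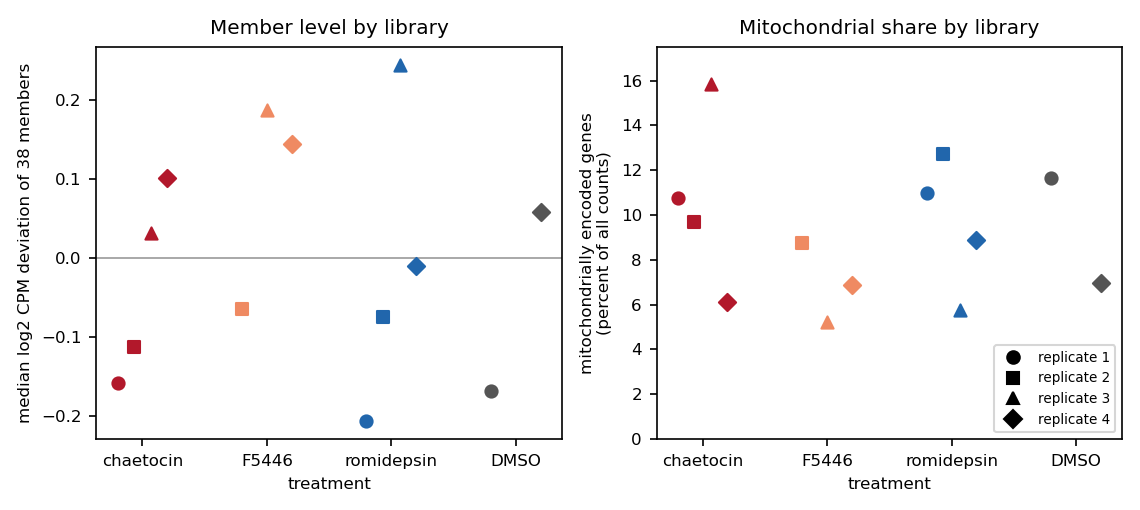
Left, median log2 CPM deviation of the 38 genes from their own means over 13 libraries; right, share of counts from mitochondrially encoded genes, both by treatment with points shaped by replicate number. All libraries numbered 3 and 4 lie above all those numbered 1 and 2 on the left, and chaetocin replicate 3 has the highest mitochondrial share at 15.9%.

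With replicate numbers 3 and 4 set against 1 and 2 in a fit that keeps treatment, the median of the 38 genes was 0.23, against -0.029 over all tested genes, and 35 of 38 lay above 0, where 47.1% of all genes did. Within treatments the difference in mean log2 CPM had a median of 0.16 for chaetocin, 0.23 for F5446, 0.24 for romidepsin and 0.23 for DMSO. By these means, 23 genes were higher in numbers 3 and 4 in all 4 treatments (60.5%, against 16.3% of all genes). By the same means 1 was lower (2.63%, against 17.9%). Apart from PRC1, the highest were KIF2C at 0.54, PTTG1 at 0.53, MKI67 at 0.48, UBE2C at 0.45 and KIF20A at 0.44. The 4 cytokinesis genes, the 3 exit genes and both chromosome proteins had higher means in every treatment, though not in every library. In chaetocin replicate 3 TOP2A was at 734 CPM, below replicates 1 and 2 (790.1 and 782 CPM). MKI67 was lower in romidepsin replicate 3 (2459 CPM) than in replicate 2 (2853 CPM). The CDC20 difference in DMSO was 0.0029.

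CENPE was the gene lower in numbers 3 and 4 in all 4 treatments. This kinesin was at 211, 201, 172 and 183 CPM in the chaetocin libraries, 197, 188 and 178 CPM in the F5446 libraries, 252, 246, 194 and 209 CPM in the romidepsin libraries and 239.5 and 189.8 CPM in the DMSO libraries. Its values were lower in numbers 3 and 4 by 0.22 log2 units with chaetocin and by 0.34 with DMSO, and its fitted difference was -0.24. CCNB1 (-0.044) and HMMR (-0.016) were also below 0, and KIF11 (0.0066), BIRC5 (0.013), TTK (0.025) and PLK1 (0.032) were close to it. Genes with TTTGAA in the promoter window had a median of 0.19 (n = 23), and those with a window that lacks it 0.37 (n = 9). Only these exact letters were searched, so the 9 genes are not shown to lack a CHR element. AURKA, BUB3, TTK, BIRC5, TPX2 and UBE2C, which had no window, are in neither set.

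**Figure D5:**
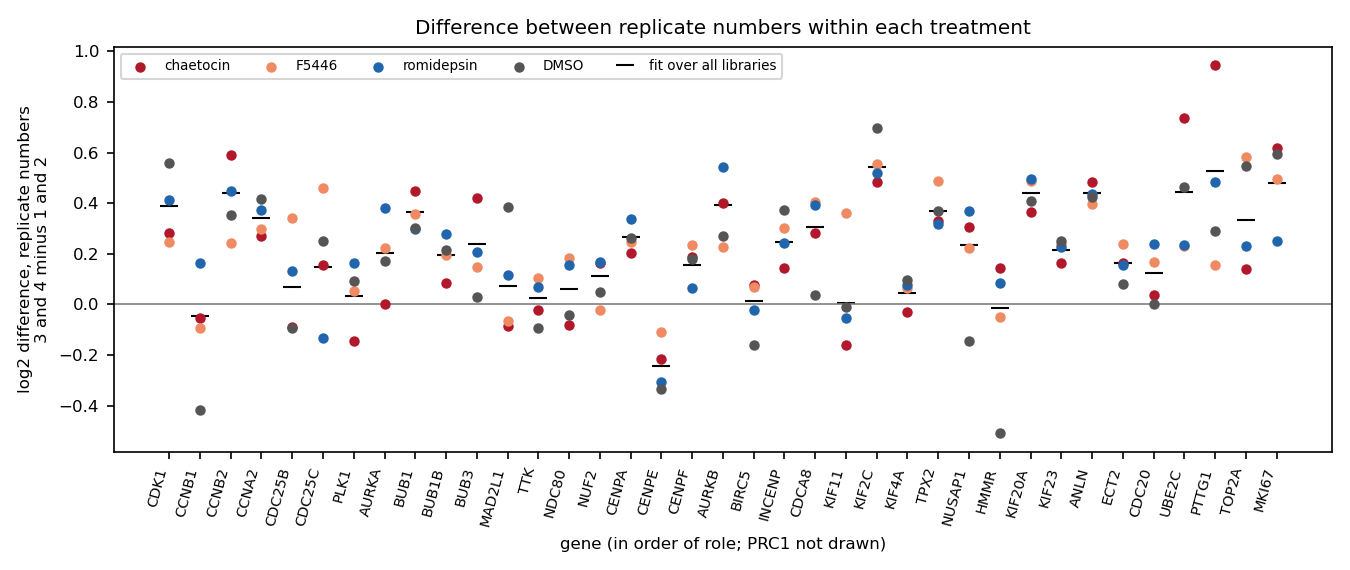
Log2 difference between libraries numbered 3 and 4 and those numbered 1 and 2, for 37 genes in order of role, within each treatment (coloured points) and in the fit over all 13 libraries (black dashes). In every treatment 23 genes lie above 0, KIF2C reaching 0.54 in the fit, and CENPE lies below 0 in all 4.

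Between treatments within numbers 1 and 2 and within numbers 3 and 4 the medians kept their sign, but not in single same-numbered pairs. Against DMSO the pair medians were -0.00053 in pair 1 and 0.066 in pair 4 for chaetocin, and -0.048 and 0.0058 for romidepsin. For F5446, pair 4 alone exists, and its median was 0.12. Within numbers 1 and 2, the median of the 38 genes was 0.019 for chaetocin, 0.096 for F5446 and 0.014 for romidepsin, each against the single DMSO library, and -0.083 for chaetocin against F5446. Within numbers 3 and 4 it was 0.030, 0.14 and 0.075 for chaetocin, F5446 and romidepsin against the other DMSO library, and -0.089 for chaetocin against F5446. Libraries with the same number varied together over the transcriptome, as did those with different numbers within 1 and 2 or within 3 and 4. With the number as a block in the fit, edgeR called 10 genes for chaetocin against DMSO, 0 for F5446, 1 for romidepsin and 11 between chaetocin and F5446, and none of the 38 in any of them. The medians of the 38 were then -0.0061 for chaetocin, 0.098 for F5446 and 0.025 for romidepsin against DMSO, and -0.079 for chaetocin against F5446. With the block, 18, 28 and 21 of the 38 genes lay above 0 for chaetocin, F5446 and romidepsin against DMSO. The unadjusted counts given for each comparison come from the fit without the block. With the block, an unadjusted p under 0.05 in edgeR was reached against DMSO by 1 of the 38 with chaetocin, 0 with F5446 and 1 with romidepsin. These were KIF2C, at -0.33 and an unadjusted p of 0.0102, and BIRC5, at 0.27 and 0.0386, while CCNB1 had an unadjusted p of 0.0662 with F5446. Between chaetocin and F5446 it was reached by 5 (CCNA2, AURKA, NUF2, CENPA and KIF2C, each lower with chaetocin). In place of the block, a term for numbers 1 and 2 against 3 and 4 was also fitted. There 25, 33 and 30 of the 38 genes lay above 0 for chaetocin, F5446 and romidepsin against DMSO. Unadjusted p in edgeR was under 0.05 for CCNB1 (higher) and KIF2C (lower) with chaetocin and BIRC5 (higher) with romidepsin. With F5446 it was so for CCNB1, BIRC5 and CDCA8, each higher, and between chaetocin and F5446 for the same 5. None of the 38 was called.

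A wider list of 96 other genes of mitosis and a list of 30 DNA replication genes, all tested, served for comparison. EdgeR called none of either in any comparison. At an unadjusted p under 0.05 there were 2, 4 and 0 of the 96 genes for chaetocin, F5446 and romidepsin against DMSO and 3 between chaetocin and F5446, and 2, 1, 1 and 0 of the 30. The median of the wider mitosis list was -0.0041 for chaetocin, 0.067 for F5446 and -0.0016 for romidepsin against DMSO, with 47, 61 and 47 of 96 above 0. For DNA replication it was 0.070, 0.048 and -0.0021. Between chaetocin and F5446 the medians were -0.049 and 0.0099, and between numbers 3 and 4 and numbers 1 and 2 they were 0.060 and 0.021.

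In the wider list PKMYT1, the kinase that places an inhibitory phosphate on CDK1, was at 26.5, 24.6, 23.7 and 24.0 CPM in the chaetocin libraries, 21.5, 19.6 and 19.9 CPM in the F5446 libraries, 15.9, 19.8, 18.4 and 21.4 CPM in the romidepsin libraries and 15.5 and 13.6 CPM in the DMSO libraries. Every library of each compound lay above both DMSO libraries, which are the same for the 3 compounds. The PKMYT1 difference was 0.76 (95% CI 0.36 to 1.16) with chaetocin, where edgeR's unadjusted p was 0.000666 and its adjusted p 0.636. It was 0.48 (95% CI 0.069 to 0.89) with F5446 and 0.37 (95% CI -0.019 to 0.76) with romidepsin. MYBL2, the transcription factor B-MYB, was at 462, 385, 367 and 342 CPM in the chaetocin libraries, 331, 316 and 270.0 CPM in the F5446 libraries, 371, 311, 281 and 354 CPM in the romidepsin libraries and 324 and 238 CPM in the DMSO libraries. The chaetocin libraries lay above all F5446 and DMSO libraries, by 0.35 (95% CI 0.051 to 0.64) and 0.47 (95% CI 0.13 to 0.81), and neither difference was called. UBE2S, which extends ubiquitin chains for the anaphase-promoting complex, stood at 0.49 (95% CI 0.095 to 0.89) with F5446 and ANAPC7, a subunit of it, at -0.30 (95% CI -0.64 to 0.037) with romidepsin. KIF18A, a kinesin that damps chromosome movements, stood at -0.33 (95% CI -0.61 to -0.042) for chaetocin against F5446.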

How the data were processed

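The authors deposited raw counts, whole numbers per gene, for 13 libraries of total RNA prepared with the Ovation Human FFPE kit, per the labels. Per the submitters' processing notes, bcl2fastq 2.20.0.422, cutadapt 1.8.1 and HTSeq 0.6.1 were used on hg19. Aligner, strandedness and annotation were not given in the sources used here. Totals ran from 19901052 to 30816188 counts, and no 2 libraries were identical. Groups came from the sample titles. For F5446 the treatment tags differ in their last digit, and the titles, which agree, were followed.

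All 17252 genes kept by edgeR's filter were fitted with all 13 libraries and group as the only term (edgeR 4.0.16, R 4.3.3, TMM, robust quasi-likelihood test, two-sided, 9 residual degrees of freedom). P-values were adjusted by Benjamini-Hochberg over every tested gene, calls were made at 0.05, and intervals are at 95%. Log2 CPM used a prior count of 2. The pipeline was tested on simulated data. Alternatives were DESeq2 1.42.0, limma-voom (limma 3.58.1), other scalings, filters and fits, a replicate block, and omission of single libraries.

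The replicate numbers come from the titles. Over 8685 genes of at least 10 CPM, all 15 pairs of libraries with the same number deviated together from their group means (r 0.19 to 0.722, median 0.398), so by the rule used the numbers were taken as pairing the libraries. Pairs with different numbers within 1 and 2 or within 3 and 4 did so too (16 pairs, r 0.163 to 0.688, median 0.334). The 31 pairs across these sets had r of -0.688 to -0.154, so the check does not tell a shared number from a shared set. DMSO has 2 libraries, whose deviations from their mean are equal and opposite. Each r with DMSO replicate 4 is therefore the negative of that with DMSO replicate 1, and these pairs are not separate observations. Deviations also cancel out within each group, so positive r in some pairs comes with negative r in others. The members and gene lists were chosen with earlier results of these data known, and 5 older symbols were matched through RefSeq synonyms. Values in every library are given for the 3 members with the smallest p in each comparison, the first member of each role and MKI67, and for CENPE, added after its values were seen. Of the wider mitosis list, the 2 genes with the smallest p per comparison are named. Other members are given by role. Plots were made in Python 3.11.15 (matplotlib 3.10.9).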

Additional observations from a re-analysis of the deposited data

Results flagged for a closer look

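In 36 sets of 4 libraries of the named genes, 2 had a library apart from the rest, and chance gives about 1 in 20. BUB1, the checkpoint kinase, was at 340.3 CPM in romidepsin replicate 3, while the other romidepsin libraries lay between 221.4 and 233.8 CPM. TOP2A, the topoisomerase, was at 1076 CPM in the same library, while the others lay between 796.8 and 822.1 CPM. This library also had the highest median deviation of the 38 genes (0.24 log2 units) and 5.75% of its counts from mitochondrially encoded genes, the part of which was not tested.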

How the results depend on the processing

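None of the 38 genes was called by any tool, scaling, filter, fit or omission of a library tried. Over 68 results of named genes there were 1700 alternative values, and 0 calls changed among those with a p-value. Differences within numbers 1 and 2 or within numbers 3 and 4 have no p-value and cannot change a call. In all, 98 values changed sign, 54 of 884 without a library and 44 of 816 otherwise. With no gene called in the fit reported, DESeq2 called 6 genes for chaetocin, 1 for F5446 and 1 for romidepsin against DMSO, and 2 between chaetocin and F5446. limma-voom and the non-robust fit called 1 gene for chaetocin against DMSO. Without the filter, 9, 0 and 5 genes were called for chaetocin, F5446 and romidepsin against DMSO, and 9 between chaetocin and F5446. The replicate block, fitted because same-numbered libraries deviated together, called 10, 0, 1 and 11 genes in the same order and changed no call among the 38. A term for numbers 1 and 2 against 3 and 4 called 7, 0, 1 and 5. The cause of these differences was not tested.

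Leaving out each library in turn gave 0 to 2 genes called for chaetocin against DMSO (1 without chaetocin replicate 4, 2 without DMSO replicate 4) and 0 in the other comparisons. The median of the 38 genes then ran from -0.0435 to 0.162 for chaetocin, 0.0722 to 0.293 for F5446 and -0.0383 to 0.165 for romidepsin against DMSO, and from -0.204 to -0.0486 between chaetocin and F5446. DMSO has 2 libraries, so leaving out 1 assumes that the other varies like the remaining groups. Counts of genes above 0 without each library, and the level of the 38 genes without PRC1, were added after seeing the data. Without PRC1 the mean deviation was -0.020 to 0.23 in libraries numbered 3 and 4, and -0.17 to -0.056 in those numbered 1 and 2.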
